A study of Macaca mulatta with 12 samples.

Results

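The genes described here are the cytochrome P450 genes of the rhesus macaque liver. Members were the Ensembl macaque identifiers whose symbol begins with CYP and a digit, with at least 1 CPM in 3 or more of 12 libraries, leaving out by name the ethanol oxidase CYP2E1 and the bile acid and sterol genes CYP7A1, CYP7B1, CYP8B1, CYP27A1 and CYP51A1. CPM are counts per 1000000 counts of the library, with the total scaled by the TMM factor of edgeR, and since transcript lengths are not used here they are compared between libraries and not between genes. Of 23993 identifiers 46 carried such a symbol, and 36 of them were members. Of the other ten, 5 were left out by name (CYP51A1 matched no identifier) and 5 did not reach the level (CYP4F22, CYP11A1, CYP11B1, CYP11B2 and CYP46A1). Just inside the level were CYP19A1 with 3 libraries at 1 CPM, CYP2W1 with 4, and CYP4X1 and CYP26C1 with 5, and just outside it was CYP4F22 with 1. The members fell into 11 families by number: 4 in family 1, 12 in family 2, 2 in family 3, 9 in family 4, 3 in family 26, and 1 each in families 17, 19, 20, 21, 24 and 27. CYP2D6 and CYP4F11 each stood on a pair of identifiers, which were kept apart and are called copy 1 and copy 2 by position. The symbols CYP3A4, CYP3A5 and CYP2C8 matched no identifier and are not analysed here.

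Cytochromes P450 are haem enzymes that insert an oxygen atom into their substrates with electrons passed on by a reductase. Families 1 to 3 oxidise drugs, dietary compounds and pollutants in the smooth endoplasmic reticulum of hepatocytes, family 4 hydroxylates fatty acids and eicosanoids, and the higher-numbered families mostly act on steroids, vitamin D and retinoic acid. Genes of family 1 are switched on through the aryl hydrocarbon receptor, and those of the CYP2B, CYP2C and CYP3A groups through the nuclear receptors PXR and CAR.

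The biopsies came from 6 male rhesus monkeys aged about 4.6 years, each sampled once ahead of an ethanol induction phase and once when it ended. Every animal drank the same daily doses during it, namely 0.5, 1 and then 1.5 g of ethanol per kg of body weight, with 30 days at each step. Alcohol was then freely offered for 12 months, at the end of which 3 animals took 4.0 g ethanol/kg/day (very heavy drinkers, VHD) and the other three 1.5 g ethanol/kg/day (light drinkers, LD). The classes thus name drinking that came after both biopsies. The groups were VHD post-induction, VHD baseline, LD post-induction and LD baseline, with 3 libraries each, 1 per animal and time. The design compares the 90-day induction with baseline in each class and the classes with each other. All animals drank, so an effect of ethanol and one of the time between biopsies cannot be told apart.

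Library totals ranged from 5970033 to 25060718 counts, and the 36 members took 0.451 to 0.762% of them. Hepatocyte marker genes (8 of 10 names with an identifier, albumin among them) summed to 145621 to 219507 CPM in VHD post-induction, 135876 to 252810 CPM in VHD baseline, 177961 to 257867 CPM in LD post-induction and 216752 to 248922 CPM in LD baseline libraries, so the tissue label fits its defining genes. Marker sums of macrophages, T and NK cells, neutrophils, cholangiocytes, sinusoidal endothelium, stellate cells and erythrocytes lay between 1.86 and 206 CPM. Before any group was compared, 2 patterns set libraries apart. On component 1 of all tested genes (31.4% of the variance) VHD post-induction 1 and 3, VHD baseline 2 and LD post-induction 2 and 3 had positive scores, and the other 7 libraries negative ones. The scores nearest 0 were 7.2 in VHD post-induction 1 and -5.6 in VHD baseline 3, so the side of these libraries is less sure. Component 2 (20.6%) set VHD post-induction 2 and VHD baseline 3, from different animals by their title numbers alone, apart from the rest. In a biopsy, fewer cells of a type and less RNA per cell cannot be told apart.

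After the induction the highest fold changes among P450 genes were those of CYP2G2 and CYP1A1 and the lowest those of CYP3A7 and CYP3A43, but none of the 36 members passed the test. The response was taken as the mean of the VHD and LD responses, post-induction over baseline, in edgeR's quasi-likelihood test over all 18373 genes with enough counts, with Benjamini-Hochberg adjustment and a threshold of 0.05. All 36 members were tested and 0 passed, against 0.267% of all genes. At an unadjusted p under 0.05 4 members were higher (CYP1A1, CYP2G2, CYP4V2 and CYP26B1; 11.1% of the members against 3.76% of all genes) and 3 were lower (CYP2C19, CYP3A7 and CYP3A43; 8.33% against 4.16%). DESeq2 called 3 members, CYP2G2 (adjusted p = 0.0159), CYP1A1 (0.0212) and CYP3A7 (0.0271), while limma voom called 0. Over all genes DESeq2 called 266 of the same 18373, where edgeR called 49. The family had no common direction: 17 members had a positive and 19 a negative log2 fold change, with a median of -0.04 against 0.07 over all genes. The median size of the log2 fold change without its sign was 0.43 in the members and 0.27 over all genes. In the LD response these medians were 0.45 and 0.36, but in the VHD response the members had the smaller one, 0.25 against 0.29. One member, CYP1A1, was higher in 6 of 6 animals (2.67% of all genes were), and 3 were lower in 6 of 6, namely CYP3A7, CYP3A43 and CYP2C19 (3.74% of all genes were). Every adjusted p given for a single gene without another tool's name is from this edgeR fit.

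**Figure D1:**
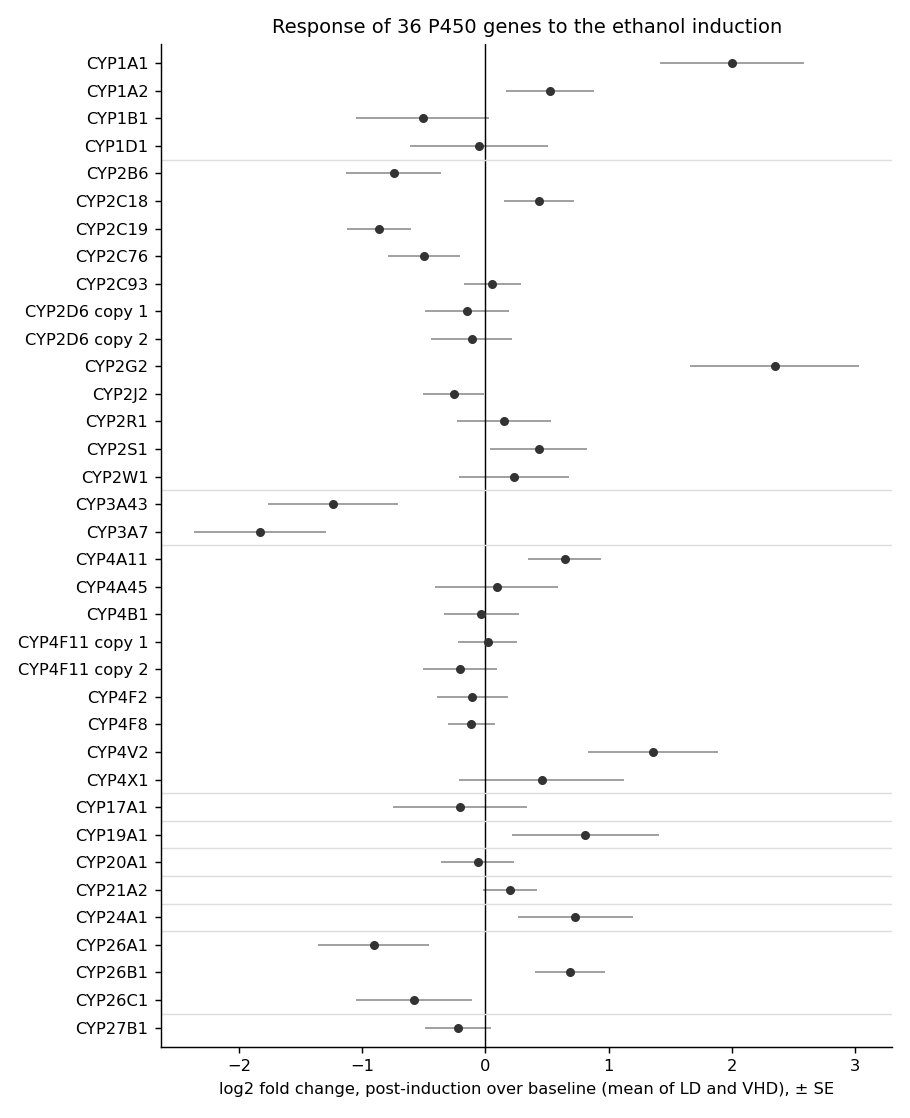
Log2 fold change of each of the 36 P450 genes after the induction (post-induction over baseline, mean of VHD and LD), with bars of ± 1 standard error (SE); genes run down the page by family number, with lines between families. CYP2G2 and CYP1A1 lie near 2 on the right, CYP3A7 and CYP3A43 lie past -1 on the left, and most others lie within 1 of 0.

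In family 1, the dioxin-inducible genes, CYP1A1 stood apart. CYP1A1 oxidises polycyclic aromatic hydrocarbons and is the classical target of the aryl hydrocarbon receptor (ENSMMUG00000022481, chromosome 7 from 51932767 to 51938865, minus strand, all positions being those of the deposited table, build Mmul_8.0.1). It had 240, 156 and 378 CPM in VHD post-induction 1, 2 and 3, against 114, 116 and 44.8 CPM in VHD baseline 1, 2 and 3. The LD post-induction libraries had 1108, 107 and 103 CPM, against 134, 46.0 and 53.0 CPM in LD baseline. Within VHD the times did not overlap, and within LD they did, because LD baseline 1 lay above LD post-induction 2 and 3. The log2 fold change was 2.00 ± 0.58 (SE, 4.00-fold, adjusted p = 0.273), and by animal it was 1.08, 0.42 and 3.06 in VHD and 3.05, 1.21 and 0.96 in LD, on log2(CPM + 0.5). LD post-induction 1 carried much of this value: without it the mean response was 0.96 (adjusted p = 0.262). With a term for the animal it was 1.61 (adjusted p = 0.303).

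The other genes of family 1 had no common direction. CYP1B1, an extrahepatic hydroxylase of oestrogens and aromatic hydrocarbons, had 2.35, 21.9 and 4.74 CPM in VHD post-induction, against 3.93, 7.02 and 24.5 CPM in VHD baseline, and 3.39, 6.79 and 7.28 CPM in LD post-induction, against 12.8, 5.38 and 10.9 CPM in LD baseline. Its high values were those of VHD post-induction 2 and VHD baseline 3, the libraries set apart by component 2, and its log2 fold change was -0.51 ± 0.54 (adjusted p = 0.885), or -1.23 without VHD post-induction 2 and 0.021 without VHD baseline 3. CYP1D1, which is a pseudogene in human, had a log2 fold change of -0.05 ± 0.56 (adjusted p = 0.993). CYP1A2, which clears caffeine and in human liver is an abundant family member, lay between 0.690 and 2.97 CPM in the 12 libraries.

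Both members of family 3 had lower values after the induction. CYP3A7, in human the fetal form of the main drug-oxidising subfamily (ENSMMUG00000022730, chromosome 3 from 125133432 to 125169304, minus strand), had 273, 33.7 and 84.2 CPM in VHD post-induction 1, 2 and 3, against 906, 547 and 192 CPM in VHD baseline. LD post-induction had 453, 108 and 138 CPM, against 844, 566 and 686 CPM in LD baseline. Within LD the times did not overlap, and in VHD the only overlap came from VHD baseline 3, which lay below VHD post-induction 1. By animal the log2 changes were -1.73, -4.00 and -1.18 in VHD and -0.90, -2.38 and -2.31 in LD. The log2 fold change was -1.83 ± 0.53 (a 3.55-fold lower level, adjusted p = 0.273) and between -2.40 and -1.55 with any 1 library left out. With a term for the animal it was -2.07 (adjusted p = 0.121).

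CYP3A43, a minor member of the same subfamily with 9 listed transcripts (ENSMMUG00000022490, chromosome 3 from 125336301 to 125377445, plus strand), was lower in 6 of 6 animals as well. Its values were 91.5, 11.3 and 17.2 CPM in VHD post-induction, against 180, 69.7 and 21.5 CPM in VHD baseline, and 34.3, 29.6 and 22.7 CPM in LD post-induction, against 78.4, 69.2 and 63.8 CPM in LD baseline. The LD times did not overlap, while in VHD the spread between animals was wider than the change within them. Its log2 fold change was -1.23 ± 0.53 (adjusted p = 0.576), and it was -1.98 without VHD post-induction 1 and -0.74 without VHD baseline 1. Genes of a subfamily are close in sequence, and how reads that match several of them were divided is not given in the sources used here, so values of single CYP2C, CYP2D6, CYP3A and CYP4F genes are uncertain to that extent.

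In family 2, the 4 CYP2C genes lie on chromosome 9 and differed in direction. CYP2C19, which in human clears proton pump inhibitors and clopidogrel (ENSMMUG00000015542, from 89981952 to 90038442, plus strand), had 524, 297 and 303 CPM in VHD post-induction 1, 2 and 3, against 778, 763 and 478 CPM in VHD baseline, and 738, 434 and 466 CPM in LD post-induction, against 816, 998 and 1210 CPM in LD baseline. The times did not overlap in LD, and in VHD they overlapped only through VHD baseline 3, which lay below VHD post-induction 1. The log2 fold change was -0.86 ± 0.26 (adjusted p = 0.303), with changes by animal from -1.37 to -0.15 and a range of -1.03 to -0.79 with any 1 library left out. CYP2C76, a macaque gene without a human counterpart, had a log2 fold change of -0.50 ± 0.29 (adjusted p = 0.735), with 1026, 707 and 734 CPM in VHD post-induction, against 1591, 1227 and 779 CPM in VHD baseline, and 1801, 744 and 873 CPM in LD post-induction, against 1603, 1148 and 1925 CPM in LD baseline. Its end overlaps a gene without a symbol on the opposite strand that averaged 1551 CPM, and whether the counting used strand is not given in the sources used here. That gene had a log2 fold change of -1.09 ± 0.36 (adjusted p = 0.36), and whether its reads entered the CYP2C76 counts was not tested. CYP2C18, for which RefSeq lists CYP2C19 and CYP2C75 as further names, had a positive value of 0.43 ± 0.28 (adjusted p = 0.764), and CYP2C93 ranged from 154 to 288 CPM.

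**Figure D2:**
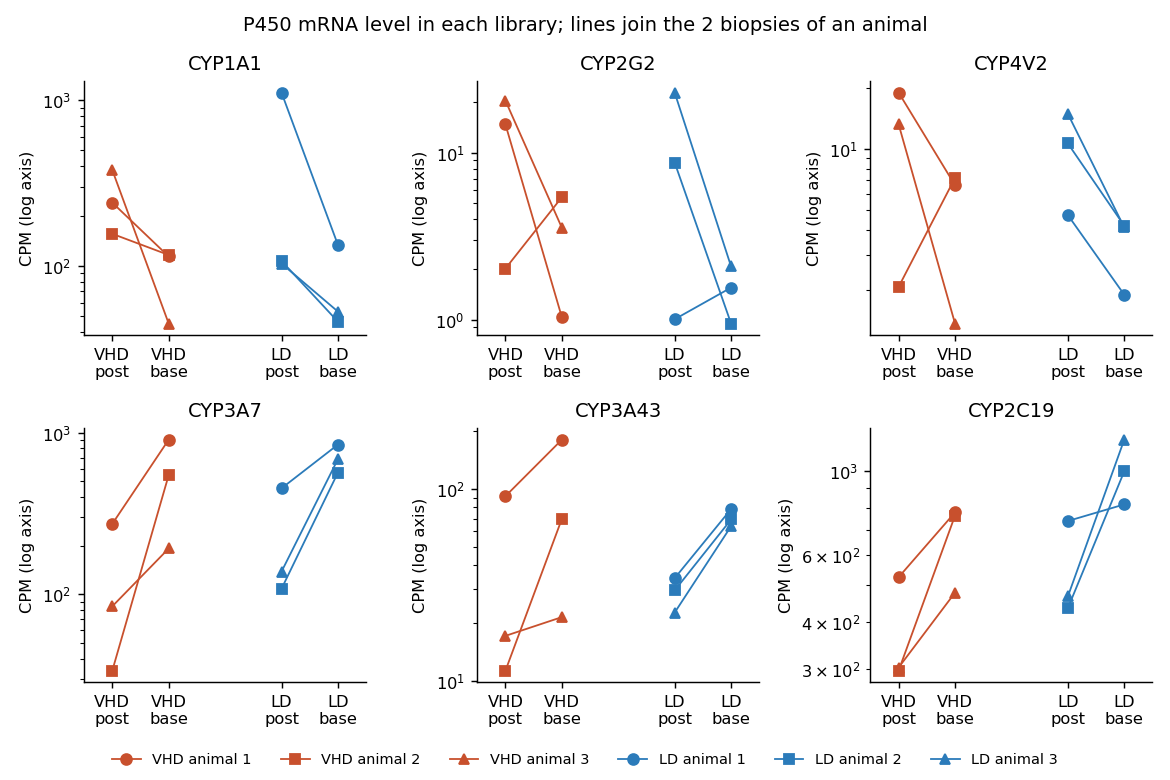
Level of 6 P450 genes in each of the 12 libraries, in CPM on a log axis, with lines joining the biopsies of 1 animal (post, post-induction; base, baseline; VHD in red, LD in blue). CYP3A7, CYP3A43 and CYP2C19 were lower and CYP1A1 higher after the induction in all 6 animals, while CYP2G2 and CYP4V2 lines cross.

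CYP2G2, CYP4V2 and CYP2C18 divided the libraries along component 1 and not only by time. CYP2G2, whose subfamily is known from the olfactory mucosa, had 14.8, 2.03 and 20.5 CPM in VHD post-induction, against 1.04, 5.42 and 3.55 CPM in VHD baseline, and 1.01, 8.73 and 22.9 CPM in LD post-induction, against 1.56, 0.949 and 2.08 CPM in LD baseline. It was higher in 4 of 6 animals, and the times overlapped in both classes. Its log2 fold change was 2.35 ± 0.69 (adjusted p = 0.274), the largest of the 36. CYP2G2 lies on chromosome 19 from 36837302 to 36850389 (ENSMMUG00000018364, minus strand), within the span of a gene without a symbol on the opposite strand that averaged 2056 CPM, and whether reads from the opposite strand were counted in it was not tested.

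CYP4V2 is an omega-hydroxylase of fatty acids whose loss in human causes a crystalline retinal dystrophy (ENSMMUG00000011632, chromosome 5 from 186696947 to 186714934, plus strand). Its levels were 19.0, 2.08 and 13.3 CPM in VHD post-induction, against 6.63, 7.20 and 1.37 CPM in VHD baseline, and 4.72, 10.7 and 15.0 CPM in LD post-induction, against 1.90, 4.17 and 4.10 CPM in LD baseline. It was higher in 5 of 6 animals, with VHD animal 2 the exception, and its log2 fold change was 1.36 ± 0.53 (adjusted p = 0.504). CYP2C18 had 839, 489 and 971 CPM in VHD post-induction, against 581, 976 and 428 CPM in VHD baseline, and 514, 855 and 991 CPM in LD post-induction, against 550, 417 and 533 CPM in LD baseline.

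In the 5 libraries with a positive score on component 1, CYP2C18 lay between 839 and 991 CPM, and in the other 7 between 417 and 581 CPM. CYP2G2 lay between 5.42 and 22.9 CPM in the 5 and between 0.949 and 3.55 CPM in the 7, and CYP4V2 between 7.20 and 19.0 CPM and between 1.37 and 6.63 CPM. One member was lower in the 5 without overlap, copy 2 of CYP4F11, at 84.0 to 141 CPM against 142 to 306 CPM. Over all tested genes 3.76% were higher and 3.40% lower in these 5 without overlap, and the component was itself computed from these values, so the split is a description. With a term for the side of component 1, added after seeing the data, the mean responses of CYP2G2, CYP4V2 and CYP2C18 were 0.38, 0.28 and -0.03. These genes were named for their split by side, so a term for the side takes up their response by construction. Among the 5 libraries only VHD baseline 2 is a baseline library, so side and time are tied. CYP1A1, CYP3A7 and CYP2C19, which overlapped between the sides, had 2.21, -1.74 and -0.86 in this fit. The contrast between these sets of genes is therefore no test. What sets the component was not tested.

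**Figure D3:**
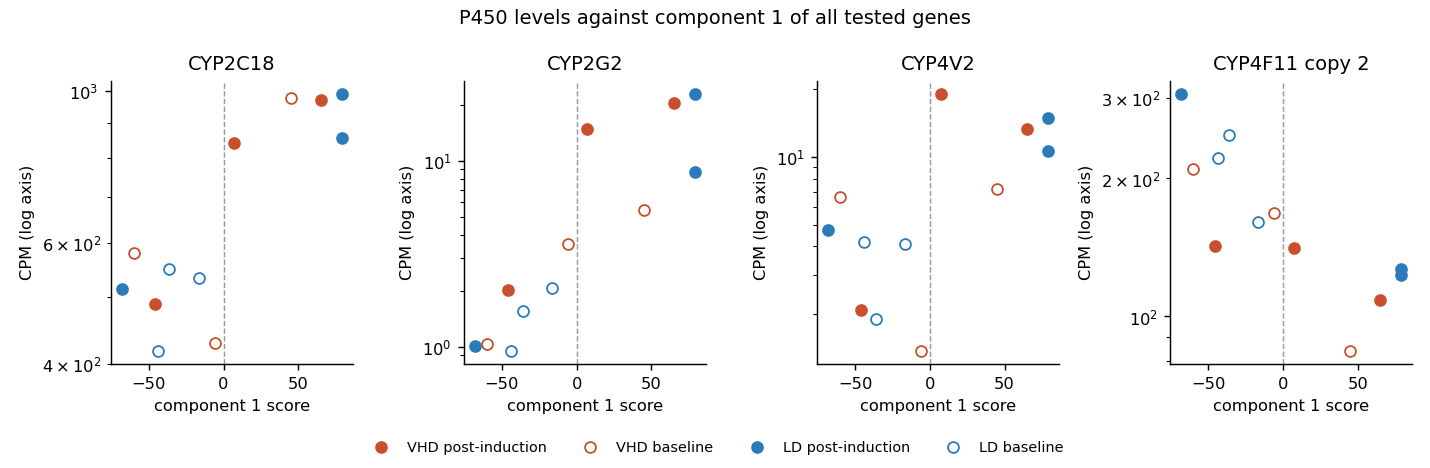
Level of 4 P450 genes (CPM, log axis) against the score of each library on component 1 of all tested genes; filled points are post-induction and open points baseline, VHD in red and LD in blue, and the dashed line marks a score of 0. CYP2C18, CYP2G2 and CYP4V2 are higher in the 5 libraries right of the line than in the 7 left of it, and CYP4F11 copy 2 is lower there.

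The remaining family 2 members had small or uneven differences. Both CYP2D6 identifiers, in human the enzyme of codeine and many antidepressants, ranged from 296 to 928 CPM for copy 1 and from 282 to 888 CPM for copy 2. Chosen after its values were seen, CYP2B6, the phenobarbital-inducible target of CAR, was lower in 5 of 6 animals, with a log2 fold change of -0.75 ± 0.39 (adjusted p = 0.684). It had 173, 59.3 and 58.4 CPM in VHD post-induction, against 237, 173 and 56.4 CPM in VHD baseline, and 72.2, 96.7 and 98.5 CPM in LD post-induction, against 86.9, 214 and 166 CPM in LD baseline. It lies within the span of the gene without a symbol that averaged 2056 CPM, here on the same strand, so strand could not separate their reads. The arachidonic acid epoxygenase CYP2J2 lay between 89.7 and 187 CPM in all 12 libraries. CYP2S1 reached at most 2.52 CPM and CYP2W1 at most 1.37 CPM.

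In family 4, 9 genes of fatty acid and eicosanoid hydroxylation, CYP4V2 alone had an unadjusted p under 0.05. The pair of CYP4F11 identifiers on chromosome 19 had log2 fold changes of 0.02 ± 0.24 for copy 1 and -0.21 ± 0.30 for copy 2 (adjusted p = 0.994 and 0.928). Copy 1 had 632, 343 and 470 CPM in VHD post-induction, against 541, 330 and 384 CPM in VHD baseline, and 686, 450 and 427 CPM in LD post-induction, against 564, 634 and 560 CPM in LD baseline. CYP4F8, a prostaglandin hydroxylase in human, had 1 of the 3 narrowest ranges, from 19.0 to 34.2 CPM, and a log2 fold change of -0.11 ± 0.19 (adjusted p = 0.943). CYP4A11, the main lauric acid hydroxylase and a target of PPAR alpha, chosen after its values were seen, was higher in 5 of 6 animals, with a log2 fold change of 0.64 ± 0.30 (adjusted p = 0.633) and its highest values of 47.4 CPM in LD post-induction 1 and 43.6 CPM in VHD post-induction 2. The lung enzyme CYP4B1 had a value of -0.03 ± 0.30 (adjusted p = 0.992).

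Among the steroid enzymes, CYP17A1, which makes androgen precursors, ranged from 96.5 to 779 CPM over the 12 libraries. It had 663, 116 and 244 CPM in VHD post-induction 1, 2 and 3, against 742, 96.5 and 261 CPM in VHD baseline, and 779, 217 and 170 CPM in LD post-induction, against 625, 459 and 360 CPM in LD baseline. By animal the log2 changes were -0.16, 0.27 and -0.10 in VHD and 0.32, -1.08 and -1.08 in LD. Animal 1 of each class was the highest of its class at both times. The log2 fold change was -0.21 ± 0.54 (adjusted p = 0.972), or 0.31 without VHD baseline 1. CYP21A2, the steroid hydroxylase of the adrenal cortex, lay between 13.8 and 25.1 CPM with a value of 0.20 ± 0.22 (adjusted p = 0.888), and overlaps TNXB on the opposite strand. The oestrogen-forming aromatase CYP19A1 lay between 0.222 and 1.94 CPM (0.81 ± 0.60, adjusted p = 0.797, or 0.22 without LD post-induction 2), and the orphan enzyme CYP20A1 between 4.46 and 10.9 CPM (-0.06 ± 0.30, adjusted p = 0.982).

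The vitamin D enzymes CYP24A1 and CYP27B1 reached at most 5.86 and 1.85 CPM. CYP24A1, which inactivates the hormone, had 1.38, 5.86 and 4.47 CPM in VHD post-induction, against 0.621, 2.77 and 5.04 CPM in VHD baseline, and 1.64, 4.78 and 3.64 CPM in LD post-induction, against 2.08, 1.52 and 1.51 CPM in LD baseline (log2 fold change 0.73 ± 0.47, adjusted p = 0.756). CYP27B1, which makes the active hormone, lay between 1.16 and 1.85 CPM with a value of -0.23 ± 0.27 (adjusted p = 0.907).

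The 3 retinoic acid hydroxylases of family 26 did not go together. CYP26B1 (ENSMMUG00000012141, chromosome 13 from 73177554 to 73197234, minus strand) had 5.80, 8.16 and 7.80 CPM in VHD post-induction, against 6.83, 4.43 and 4.81 CPM in VHD baseline, and 3.71, 8.21 and 4.12 CPM in LD post-induction, against 1.73, 3.23 and 3.31 CPM in LD baseline. It was higher in 5 of 6 animals, without overlap of the times in LD, at a log2 fold change of 0.69 ± 0.28 (adjusted p = 0.549). CYP26A1, the main hepatic form, had 25.3, 29.3 and 19.1 CPM in VHD post-induction, against 127, 13.8 and 57.1 CPM in VHD baseline, and 53.1, 41.5 and 15.6 CPM in LD post-induction, against 39.8, 72.8 and 31.8 CPM in LD baseline. Its log2 fold change of -0.91 ± 0.45 (adjusted p = 0.668) became -0.46 without VHD baseline 1, the library at 127 CPM. CYP26C1 had a value of -0.58 ± 0.47 (adjusted p = 0.821), or -0.21 without VHD baseline 3.

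For 5 members both libraries that component 2 set apart lay beyond all others, a share near or below that of all genes. In VHD post-induction 2 and VHD baseline 3, CYP1B1 had 21.9 and 24.5 CPM, against 2.35 to 12.8 CPM in the other ten. CYP26C1 had 2.68 and 4.00 CPM, against 0.477 to 1.54 CPM, and CYP24A1 5.86 and 5.04 CPM, against 0.621 to 4.78 CPM. CYP1D1 (1.31 and 0.852 CPM, against 1.80 to 11.4 CPM) and CYP2C93 (154 and 163 CPM, against 168 to 288 CPM) were lower in both. These are 3 members higher (8.33%) and 2 lower (5.56%), where 8.53% of all tested genes were higher and 7.77% lower in the same pattern. Without both libraries, a fit added after seeing the data, the mean responses were 1.97 for CYP1A1, -1.81 for CYP3A7, 2.62 for CYP2G2, -0.89 for CYP2C19 and -1.25 for CYP3A43.

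**Figure D4:**
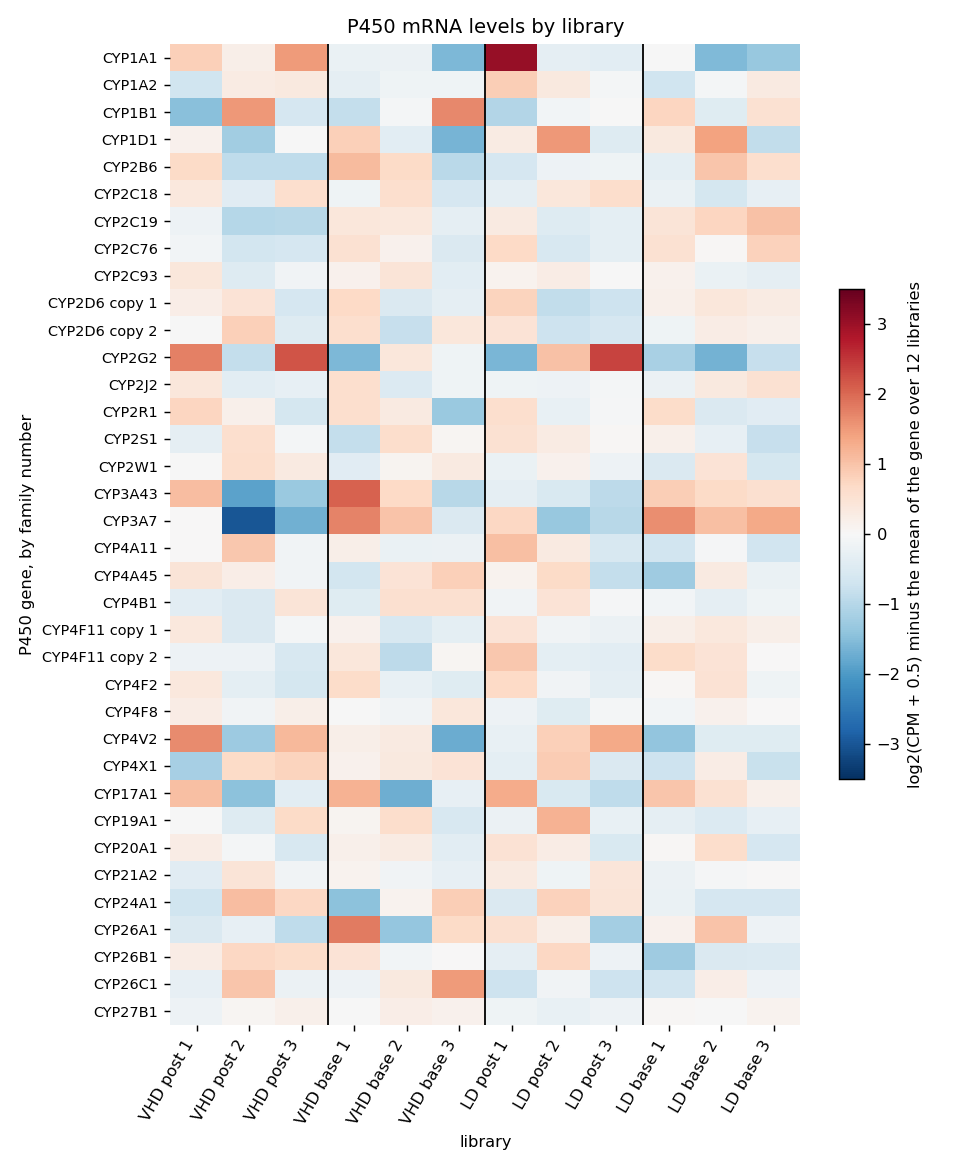
Log2(CPM + 0.5) of each P450 gene minus its own mean over the 12 libraries (red above, blue below, on a scale symmetric about 0), with libraries in columns by group and genes in rows by family number. The post-induction columns of CYP3A7, CYP3A43 and CYP2C19 are mostly blue beside their baseline columns, and the CYP1B1 row is reddest in VHD post-induction 2 and VHD baseline 3.

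The genes that serve P450 enzymes were followed in a list of 40 names for electron donors, haem synthesis and breakdown, and regulators, of which 35 had an identifier and were tested. None passed in the mean response by edgeR and 0 by limma voom, while DESeq2 called 1, NFE2L2 (adjusted p = 0.000463). Over all 18373 genes DESeq2 called 266. At an unadjusted p under 0.05 2 were higher (5.71% against 3.76% of all genes) and 4 lower (11.4% against 4.16%). Their median log2 fold change was 0.08, against 0.07 over all genes. POR, the reductase that feeds electrons to all microsomal P450 enzymes, had 164, 400.1 and 227 CPM in VHD post-induction, against 307, 445 and 662 CPM in VHD baseline, and 298, 188 and 185 CPM in LD post-induction, against 323, 314 and 523 CPM in LD baseline. It was lower in 6 of 6 animals, without overlap of the times in LD, at a log2 fold change of -0.81 ± 0.30 (adjusted p = 0.449). The list held 6 tested electron donors. CYB5A, the microsomal cytochrome b5, had -0.03 ± 0.22 (adjusted p = 0.987), and values of the other four ran from -0.13 for PGRMC1 to 0.60 for CYB5R3.

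ALAS1, the rate-limiting enzyme of haem synthesis, had 70.6, 59.5 and 154 CPM in VHD post-induction, against 245, 95.2 and 277 CPM in VHD baseline, and 231, 70.4 and 108 CPM in LD post-induction, against 228, 403 and 229 CPM in LD baseline (log2 fold change -1.09 ± 0.38, adjusted p = 0.413). UROD, a later enzyme of the same synthesis and named after its values were seen, had a positive value of 1.27 ± 0.44 (adjusted p = 0.405). It had 55.3, 34.6 and 150 CPM in VHD post-induction, against 24.7, 24.7 and 41.2 CPM in VHD baseline, and 34.5, 23.6 and 108 CPM in LD post-induction, against 14.9, 23.7 and 36.8 CPM in LD baseline, with animal 3 of each class the highest and the times overlapping in both classes. HMOX1, which breaks haem down, had a value of -0.49 ± 0.42 (adjusted p = 0.845). Of the receptors, AHR, through which CYP1A1 is induced, had a value of -0.17 ± 0.35 (adjusted p = 0.962). NR1I2, which encodes PXR, was higher in 6 of 6 animals at 0.50 ± 0.23 (adjusted p = 0.621). In VHD animal 3 it had 7.94 CPM post-induction against 7.85 CPM at baseline. It was the 1 gene of the list higher in 6 of 6 animals (2.86% against 2.67% of all genes). Lower in 6 of 6 were 3 (8.57% against 3.74%): POR, NFE2L2 and, named after its values were seen, NR1H4. NR1I3, which encodes CAR, had a value of -0.15 ± 0.29 (adjusted p = 0.955). HNF4A, a regulator of hepatocyte genes, had one of 0.28 ± 0.24 (adjusted p = 0.844). The smallest p of the list belonged to NFE2L2, the regulator of the antioxidant response, named after its values were seen. It had 124, 81.1 and 82.2 CPM in VHD post-induction, against 260, 195 and 201 CPM in VHD baseline, and 80.3, 115 and 113 CPM in LD post-induction, against 229, 185 and 152 CPM in LD baseline, at a log2 fold change of -1.03 ± 0.22 (adjusted p = 0.0887). The times did not overlap in either class.

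Within VHD animals 0 of 36 members passed in edgeR, as did 0.0% of all genes, and DESeq2 and limma voom called 0 members. At an unadjusted p under 0.05 3 members were lower (CYP3A7, CYP2C19 and CYP26A1; 8.33% against 2.22% of all genes) and 0 higher (1.22% of all genes). CYP3A7 had a log2 fold change of -2.08 ± 0.76, CYP2C19 of -0.84 ± 0.37 and CYP26A1 of -1.43 ± 0.64 (adjusted p = 1.0 each). CYP26A1 depended on VHD baseline 1, without which the value was -0.53, and CYP3A7 had -3.22 without VHD post-induction 1. CYP2G2 (1.87 ± 0.94) and CYP1A1 (1.49 ± 0.81) had positive values with the same adjusted p. The 3 post-induction libraries lay above the 3 baseline libraries without overlap for 1 member, CYP1A1 (2.78% against 2.8% of all genes), and below them for 0 (3.89% of all genes).

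Within LD animals 0 of 36 members passed in edgeR either, as did 0.0% of all genes, and DESeq2 and limma voom called 0 members. At an unadjusted p under 0.05 3 were higher (CYP1A1, CYP2G2 and CYP26B1; 8.33% against 3.33% of all genes) and 1 lower (CYP2C19; 2.78% against 2.37%). The log2 fold changes were 2.50 ± 0.84 for CYP1A1, 2.82 ± 1.01 for CYP2G2, -0.88 ± 0.37 for CYP2C19, 0.93 ± 0.41 for CYP26B1 and -1.58 ± 0.75 for CYP3A7 (adjusted p = 0.856 each). Without LD post-induction 1 the CYP1A1 value was 0.44 and that of CYP3A7 -2.51. Without LD post-induction 3 the CYP2G2 value was 1.66, and CYP26B1 had 0.48 without LD post-induction 2 and 0.61 without LD baseline 1. The times did not overlap for 3 members that were higher (CYP4V2, CYP19A1 and CYP26B1, 8.33% against 5.5% of all genes) and 4 that were lower (CYP2C19, CYP3A7, CYP3A43 and CYP27B1, 11.1% against 6.17%). For CYP19A1 the separation lay near the floor, at 0.383 CPM (4 counts) in LD post-induction 3 against 0.359 CPM (5 counts) in LD baseline 3. CYP27B1 was low too, with 1.16 to 1.27 CPM (13 to 24 counts) in LD post-induction. LD baseline had 1.45 to 1.65 CPM of it (9 to 23 counts), with an unadjusted p of 0.395 in edgeR.

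The responses of the classes were then set against each other, as the VHD response minus the LD response. No member passed in edgeR (0.0% of all genes did), DESeq2 or limma voom, and at an unadjusted p under 0.05 0 members were higher (0.207% of all genes) and 0 lower (1.09%). The smallest unadjusted p belonged to CYP4B1, with a difference of -0.82 ± 0.60 on the log2 scale, CYP19A1 (-1.44 ± 1.19), CYP26A1 (-1.04 ± 0.89), CYP2S1 (-0.73 ± 0.78) and CYP1A1 (-1.01 ± 1.13), each with adjusted p = 1.0. For CYP1A1 the difference turned to 1.05 without LD post-induction 1. The value was -0.28 for CYP19A1 without LD post-induction 2, -0.14 for CYP26A1 without VHD baseline 1 and -0.24 for CYP2S1 without VHD baseline 2.

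Between the classes after the induction, no P450 gene differed past the threshold in edgeR (0 of 36, and 0.0% of all genes), DESeq2 or limma voom. At an unadjusted p under 0.05 0 members were higher in VHD (1.44% of all genes) and 0 lower (0.996%), and no member had VHD libraries all above (2.67% of all genes) or all below (2.16%) those of LD. CYP26C1 had 0.828, 2.68 and 0.902 CPM in VHD post-induction, against 0.477, 0.970 and 0.479 CPM in LD post-induction, a log2 fold change of 1.21 ± 0.67, which was 0.42 without VHD post-induction 2. Values of the other leading members were -0.54 ± 0.37 for CYP2C19, -1.06 ± 0.80 for CYP1D1, 0.34 ± 0.27 for CYP4F8 and -0.50 ± 0.42 for copy 2 of CYP4F11 (adjusted p = 0.999 for all 5). For CYP4F11 copy 2, LD post-induction 1 with 306 CPM carried the difference, which was 0.061 without it. The CYP1D1 difference was -0.29 without LD post-induction 2 and -0.69 without VHD post-induction 2, and that of CYP2C19 was -0.27 without LD post-induction 1 and -0.87 without VHD post-induction 1.

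At baseline, before the induction, the classes differed past the threshold in no P450 gene either (0 of 36 in edgeR, against 0.00544% of all genes), and DESeq2 and limma voom called 0 members. At an unadjusted p under 0.05 1 member was higher in VHD (CYP26B1; 2.78% against 1.43% of all genes) and 0 were lower (0.425% of all genes). CYP26B1 had 6.83, 4.43 and 4.81 CPM in VHD baseline, against 1.73, 3.23 and 3.31 CPM in LD baseline, so the classes did not overlap, at a log2 fold change of 0.93 ± 0.41 (adjusted p = 1.0). The 1.73 CPM of LD baseline 1 stood on 10 counts. Over the alternatives on genes the CYP26B1 value lay between 0.66 and 1.07. Without LD baseline 1, LD baseline 2, VHD baseline 3 or VHD post-induction 3, 0 members had an unadjusted p under 0.05. With limma voom, on transcripts and without the 2 libraries apart it was 0 as well. CYP26B1 was the 1 member with all VHD baseline libraries above those of LD (4.13% of all genes). The 2 members below without overlap were CYP2C19 (-0.58 ± 0.37) and copy 1 of CYP4F11 (-0.49 ± 0.34), 5.56% of the members against 3.08% of all genes. CYP2C19 had 778, 763 and 478 CPM in VHD baseline, against 816, 998 and 1210 CPM in LD baseline. CYP26C1 (1.15 ± 0.66) and CYP4B1 (0.59 ± 0.43) had positive values (adjusted p = 1.0 for these 4). Without VHD baseline 3 they were 0.26 and 0.34. That library had 4.00 CPM of CYP26C1, and the other VHD baseline libraries 0.932 and 1.54 CPM. The 2 class comparisons use different libraries of the same animals.

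**Figure D5:**
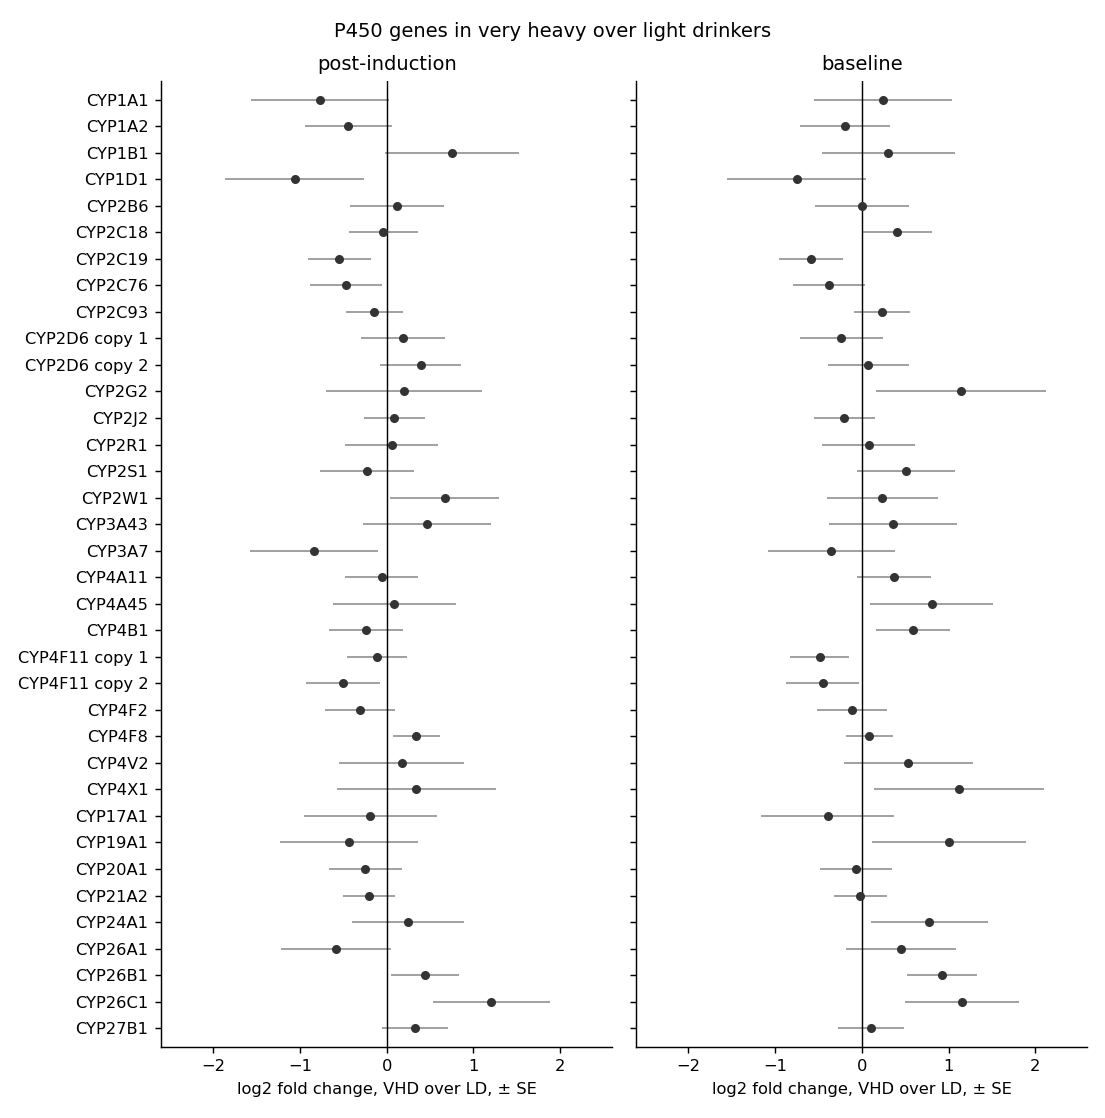
Log2 fold change of each P450 gene in VHD over LD, with bars of ± 1 SE, post-induction in the left panel and at baseline in the right panel; genes run down the page by family number. CYP26C1 lies near 1.2 in both panels and CYP2C19 near -0.6, and no gene passed the threshold in either.

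Levels of single animals were also set beside the change between the 2 biopsies of an animal. A span of 6 animal means and a median change are unlike measures, and the span was the larger for most members. The values below therefore only describe single genes, and no share over all genes was computed. CYP2R1, the liver enzyme that starts vitamin D activation, chosen after its values were seen, had 14.6, 9.75 and 5.41 CPM in VHD post-induction 1, 2 and 3, against 13.0, 10.8 and 3.18 CPM in VHD baseline, and 13.1, 6.98 and 8.24 CPM in LD post-induction, against 13.5, 5.88 and 6.32 CPM in LD baseline. The means of its animals spanned 1.62 on the log2 scale, and its median change within an animal was 0.19 (at most 0.68). CYP1D1 was highest in LD animal 2, with 11.4 CPM post-induction and 10.8 CPM at baseline, and its animal means spanned 2.29, against a median change of 0.56, but in VHD animal 3 the change was 1.62. For CYP17A1 the means spanned 2.72 and the median change was 0.29, with 1.08 as the largest. CYP3A7 and CYP2G2 had median changes within an animal of 2.02 and 2.52, beside spans of 2.28 and 2.39. The 2 biopsies of an animal are joined by their title number alone, so changes by animal, counts of animals and values with a term for the animal rest on those numbers. For VHD animals 2 and 3 the deviations from the group means went more with the other animal's biopsy (0.35 and 0.27) than with the own one (-0.37 and 0.10).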

How the data were processed

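Expected counts per Ensembl transcript were deposited by the authors as 1 table of 12 libraries; per the submitters' processing notes, the build was Mmul_8.0.1 and the tools included BWA, Bowtie and Partek. Their versions, the annotation release, strand use and the split of shared reads were not given in the sources used here. Per the labels' protocols, each library was made with a joint mRNA and miRNA kit from 500 ng of RNA (RIN over 8.5) and read for 76 bases. Whether the start coordinates count from 0 or 1 is unsettled.

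The 40611 transcripts were summed into 23993 genes and rounded to whole numbers, and 15471 identifiers had a symbol in the names table used here. After filterByExpr by group, 18373 genes entered the fit of edgeR 4.0.16 under R 4.3.3 (TMM, robust quasi-likelihood fit of 4 group means over 12 libraries, Benjamini-Hochberg adjustment within each of 6 comparisons). SE is the log2 fold change divided by the square root of F. Per-animal changes are on log2(CPM + 0.5). The totals of 5970033 to 25060718 counts put 1 CPM at about 6 to 25 counts. P-values treat the 12 libraries as independent samples, though each animal gave 2 of them.

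Members and lists were chosen with earlier results of these data known. The genes named were those past the threshold, the 5 smallest p of each comparison, the 2 highest of each family, the 5 widest and 3 narrowest ranges, and 8 partner genes; others are marked. Alternatives were DESeq2 1.42.0, RLE and upper-quartile factors, no filter or one at 1 CPM in 3 libraries, the animal as a block, limma voom (limma 3.58.1) with the animal as a random effect, only the groups compared, transcripts, and each library left out. Leaving out 2 libraries and a term for component 1 were added after seeing the data. The script was tested on simulated data. Title numbers tie the biopsies of an animal. Deviations from the group means correlated across genes by 0.44, -0.37 and 0.10 in VHD animals 1, 2 and 3 and by 0.08, -0.01 and 0.40 in LD animals, while VHD post-induction 2 correlated with VHD baseline 3 by 0.35 and VHD post-induction 3 with VHD baseline 2 by 0.27.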

Additional observations from a re-analysis of the deposited data

How the results depend on the processing

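No P450 member passed in the VHD or LD response, their difference or either class comparison under any alternative run, and in the mean response DESeq2 alone called members (3). The count of all genes called in the mean response (49) was 266 with DESeq2, 103 with the component 1 term, 32 without the 2 libraries apart, 0 on transcripts, 4 with the replicate block for the animal and 0 to 71 with 1 library left out. It was 0 without LD post-induction 2 or VHD post-induction 1, 1 without LD baseline 3 or VHD baseline 1, 2 without VHD post-induction 3, 4 without LD post-induction 3, 12 without LD baseline 2 and 31 without VHD baseline 2. The block, on animals for responses and on title numbers between classes (which correlated from -0.31 to 0.41), changed no other call. In the VHD response 54 genes passed with DESeq2, 3 with the component 1 term, 1 without the 2 libraries apart and 0 to 1 with 1 left out, and in the LD response 50 with DESeq2. At baseline 1 gene differed between classes, and 0 did with upper-quartile factors, the 1 CPM filter, only the groups compared, transcripts, either added fit, and 0 to 1 with 1 library left out. Post-induction 0 did, but 1 with DESeq2, no filter, limma voom, only the groups compared, and 0 to 1 with 1 left out. The difference of responses gave 1 with DESeq2.

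Mean responses near 0 turned direction, and the cause was not tested. With 1 library left out they ran from -0.71 to 0.31 for CYP17A1, -1.23 to 0.021 for CYP1B1, -0.44 to 0.42 for CYP1D1, -0.20 to 0.13 for CYP20A1, -0.30 to 0.071 for CYP4B1 and -0.12 to 0.13 for CYP4F11 copy 1. The class difference of CYP4F11 copy 2 post-induction ran from -0.73 to 0.061, and the CYP1A1 difference of responses from -1.66 to 1.05. CYP1D1 was 0.044 with upper-quartile factors, 0.11 with the block and 0.23 with limma voom, and CYP4F11 copy 1 was -0.0052 with the block and -0.0044 with limma voom. CYP4B1 was 0.028 with upper-quartile factors and 0.16 without the 2 libraries apart, where CYP4F8 was 0.027. The component 1 term gave 0.54 for CYP17A1, -0.032 for CYP2C18 and 0.24 for CYP4F11 copy 2.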

Other observations

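Summed over the CYP3A genes CYP3A7 and CYP3A43, levels were 364, 45.0 and 101 CPM in VHD post-induction 1, 2 and 3, against 1085, 616 and 214 CPM in VHD baseline, and 487, 138 and 161 CPM in LD post-induction, against 923, 635 and 750 CPM in LD baseline. Such a sum does not depend on how reads shared by the pair were divided between them. The LD times did not overlap, and in VHD they overlapped through VHD baseline 3.

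Of the 4 CYP2C genes together, CYP2C19 took 19.7, 18.0 and 13.8% of the counts in VHD post-induction, against 24.4, 23.4 and 25.9% in VHD baseline, and 22.5, 19.0 and 18.4% in LD post-induction, against 25.5, 36.4 and 31.5% in LD baseline. The times did not overlap in either class. CYP2C18 took 31.5, 29.7 and 44.1% in VHD post-induction, against 18.3, 30.0 and 23.2% in VHD baseline, and 15.7, 37.4 and 39.1% in LD post-induction, against 17.2, 15.2 and 13.9% in LD baseline, with overlap in both classes. These shares were chosen after their values were seen and were not tested, and nothing like them was computed over all genes. They depend on how reads shared by these close genes were divided. A share also moves with the other CYP2C genes, and CYP2C8 matched no identifier. In CPM, CYP2C19 did overlap between the times in VHD. The sum of the 4 genes was 2665, 1647 and 2202 CPM in VHD post-induction, against 3182, 3254 and 1847 CPM in VHD baseline, and 3282, 2285 and 2538 CPM in LD post-induction, against 3202, 2744 and 3836 CPM in LD baseline.

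The number of transcripts behind a member varied. CYP3A43 counts were spread over 9 transcripts, and no transcript held the same share across libraries. Its transcript with the largest share over all libraries, at 22.0%, ranged from 4.08e-05 to 49.5% of the gene's counts in single libraries. CYP1A1 counts came to 97.4% or more from 1 of 3 transcripts in every library.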
